A study of Homo sapiens with 2 samples.

Results

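Transcripts of the BCL2 family of mitochondrial apoptosis were followed after knockdown of the NKL homeobox gene HLX in SU-DHL-1, a human line grown from an ALK-positive anaplastic large cell lymphoma (ALCL). The family was taken as 10 genes, namely the survival genes BCL2, BCL2L1, MCL1 and BCL2A1, the effector genes BAX and BAK1, and the BH3-only genes BID, BAD, BCL2L11 and PMAIP1, out of 19775 genes with a probe set of their own on the array. Members were chosen by symbol, and each of the 10 was found. Together they had 33 probe sets, short groups of oligonucleotides that each give 1 reading of a transcript. The cells had been electroporated with an siRNA against HLX (siHLX) or with a commercial negative control siRNA (siCTR), and each treatment was read on 1 Affymetrix HG-U133 Plus 2.0 array. Both groups carried the NPM1-ALK fusion of the line, the labels name no further treatment, and the cells were harvested within a day of the transient transfection. With 1 array per treatment no test between the treatments was possible, and the differences given here describe these 2 arrays.

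BCL2 family proteins meet at the outer membrane of mitochondria. Survival members bind the others and keep the membrane closed, the effectors BAX and BAK1 form the pores that let cytochrome c out, and BH3-only members carry stress signals that engage the survival members or the effectors. Lymphoid cells are known to depend on several survival members, and much of the control of MCL1, BAX and BAD lies in protein turnover, location and phosphorylation, which an array of transcripts does not read.

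Values are log2 RMA intensities, so a difference of 1 is 2-fold. Every difference is siHLX minus siCTR and shows a transcript against the mass of the others, because the arrays had been quantile normalised. HLX itself read 7.70 with siHLX and 8.15 with siCTR, a difference of -0.45 or 0.732 times the control level. Control transcripts added before labelling (poly-A controls) differed by a mean of -0.29 and were lower on the siHLX array in 23 of 24 probe sets, and the hybridisation controls added later differed by a mean of -0.03. If both arrays are scaled to equal poly-A controls instead, each difference below moves up by 0.289, the median gene moves to 0.28 from -0.01 and HLX to -0.16. All 10 ALCL markers lay above the level threshold of 4.865, the median of all probe sets, with TNFRSF8 (CD30) at 9.79 with siHLX and 9.92 with siCTR. Above it were also 2 of 5 B-cell markers (CD79A and PAX5), 2 of 5 myeloid markers and 2 of 6 markers of epithelium or stroma (COL1A1 and DCN). The others, among them MS4A1, CD14, LYZ and EPCAM, lay below it. CD79A read 6.81 with siHLX and 6.57 with siCTR, and COL1A1 7.43 with siHLX and 7.62 with siCTR. The myeloid marker ITGAM read 4.45 with siHLX and 5.51 with siCTR, and CSF1R 6.23 with siHLX and 5.79 with siCTR. Their part in the results was not tested.

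The plot of levels on both arrays shows where each probe set lay. Intensities of different probe sets do not rank transcript amounts, so levels are given only as positions on the array. As a gauge of signal without transcript, 18 genes not expected in blood cells were listed, 14 of them with a probe set of their own. Their brightest probe sets had a median of 4.36, and 4 of the 14 lay above the level threshold. The liver gene ALB reached 6.645 and MBP, which lymphocytes may also transcribe, 6.705. At or below the level of ALB were 13 of the 33 BCL2 family probe sets, and BCL2 was the 1 gene whose probe sets all lay there. The stromal marker COL1A1, not in this gauge, lay higher still, at a mean of 7.525. Below that level were also the single probe set of BAK1 (7.29) and the brightest of BCL2L11 (7.445). At such levels these arrays cannot tell whether a transcript was present.

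**Figure D1:**
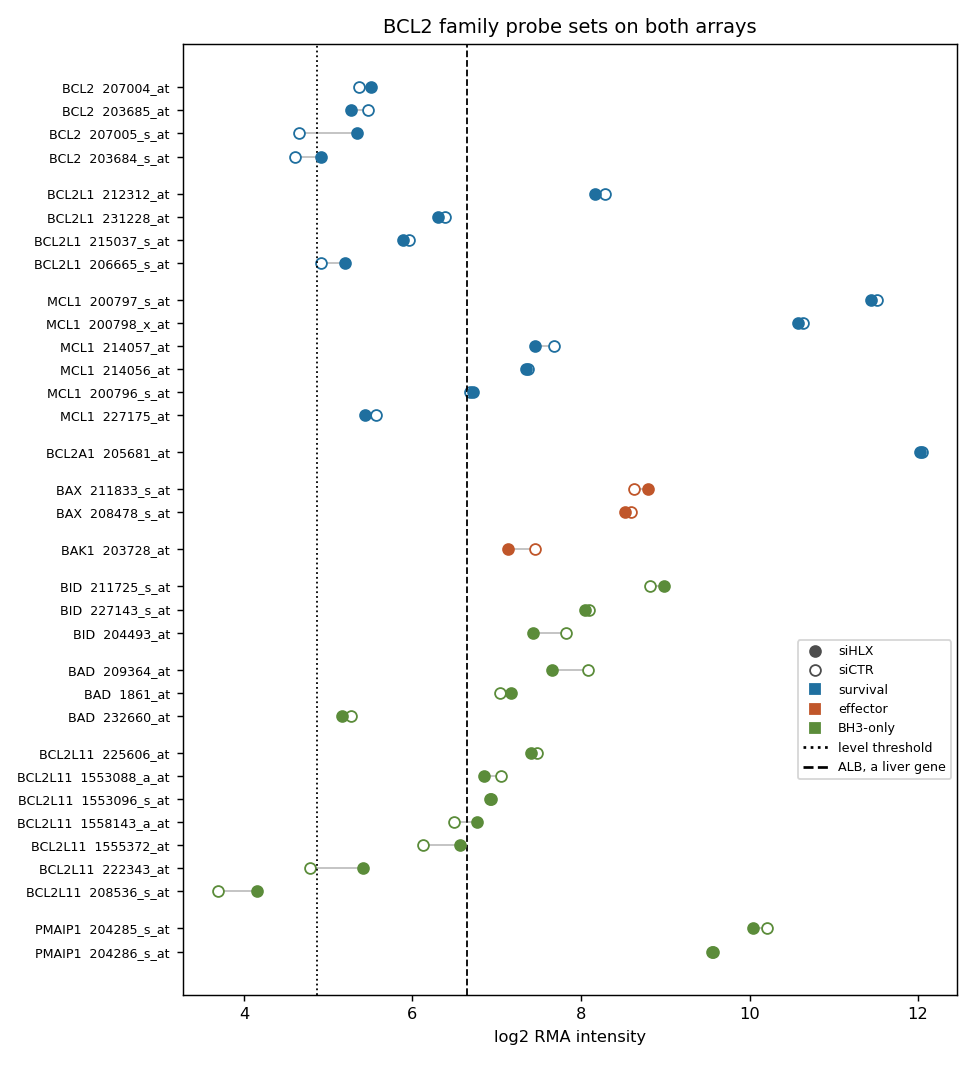
Log2 RMA intensity (x axis) of the 33 BCL2 family probe sets (y axis, by gene) on the siHLX array (filled) and the siCTR array (open); the dotted line is the level threshold of 4.865 and the dashed line the level of the liver gene ALB, 6.645. Probe sets of BCL2A1, MCL1 and PMAIP1 reach levels above 9, whereas all 4 of BCL2 lie left of the dashed line.

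When the brightest probe set stood for each gene, 7 of the 10 members were lower on the siHLX array and 3 higher, with a median difference of -0.07. Among the 12135 genes above the threshold 50.1% were lower and 47.4% higher, with a median of -0.01. The members lower were BCL2L1, MCL1, BCL2A1, BAK1, BAD, BCL2L11 and PMAIP1, and those higher were BCL2, BAX and BID. With equal poly-A controls, which add 0.289 to every gene, 8 of 10 members were higher, as were 88.8% of all genes, and BAD and BAK1 stayed lower. The members' median was then 0.22, against 0.28 over all genes. At the level of probe sets 31 of the 33 lay above the threshold, 12 of them higher and 19 lower, with a median of -0.05 against 0.0 over all 22453 probe sets, of which 49.9% were lower and 47.5% higher. A difference of at least 1.5-fold was reached by 2 of the 31, both higher, where 6.01% of all probe sets above the threshold reached it in either direction, 3.04% upwards and 2.97% downwards. At 1.2-fold the count was 8 (5 higher and 3 lower), or 25.8%, against a background of 28.1%, or 13.7% upwards and 14.4% downwards, and at 2-fold it was 0 against 0.811%, or 0.41% upwards and 0.401% downwards. The BCL2 family shares lay near these backgrounds, and 2 probe sets are few to set against a percentage.

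**Figure D2:**
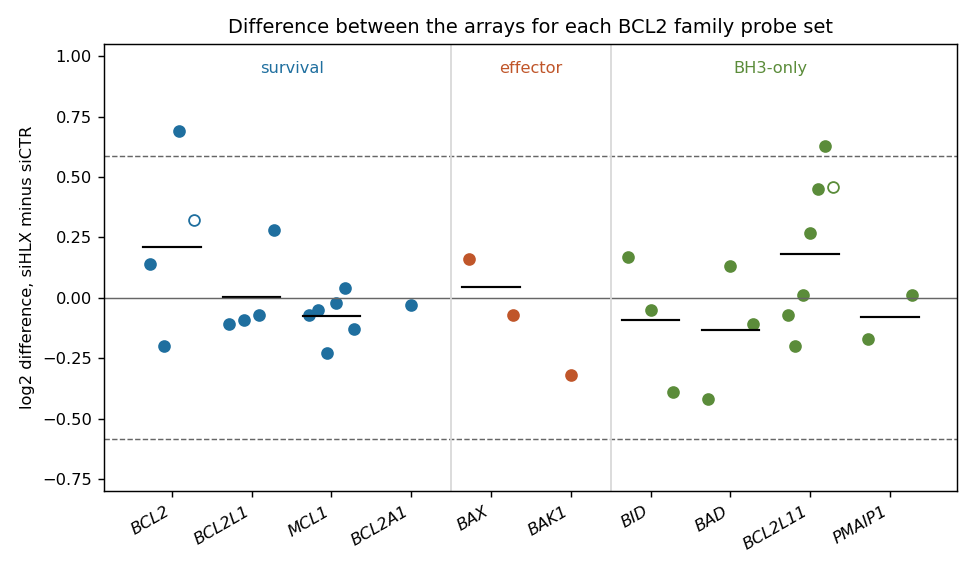
The siHLX minus siCTR difference in log2 units (y axis) of each BCL2 family probe set (x axis, genes by role, probe sets from bright to dim within a gene); filled circles lie above the level threshold and open circles below it, black bars are means over the filled circles of a gene, and dashed lines mark 1.5-fold. Only 1 probe set each of BCL2 and BCL2L11 passes a dashed line, and every gene with 2 or more filled circles has some on both sides of 0; with equal poly-A controls all points would lie 0.289 higher.

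Among the survival genes, BCL2A1 and MCL1 had the brightest probe sets, and these differed little. BCL2A1, an NFkB-induced survival gene of activated lymphocytes, read 12.02 with siHLX and 12.05 with siCTR on its single probe set. MCL1, a short-lived survival protein, read 11.44 with siHLX and 11.51 with siCTR on the brightest of its 6 probe sets, and 10.58 with siHLX and 10.63 with siCTR on the next. These readings lay at or above the percentile 96.5 of either array, and none of the 3 differed by more than 0.07. The dimmer probe sets of MCL1 read -0.23, -0.02, 0.04 and -0.13, so that 5 of 6 were lower, with a mean of -0.08 (SD 0.09 between probe sets, which is no replicate error). Scaled by the poly-A controls, all 6 were higher. Of all probe sets within 0.5 log2 units of the level of 214057_at, the probe set at -0.23, 15.3% lay as far down.

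BCL2L1 encodes the survival protein BCL-XL and, by splicing, the pro-apoptotic short form BCL-XS. Its brightest probe set read 8.17 with siHLX and 8.28 with siCTR, and the next 2 differed by -0.09 and -0.07. The dimmest, 206665_s_at, went the other way, with 5.20 on the siHLX array and 4.92 on the siCTR array, a difference of 0.28. Its level is close to the threshold, and 26.7% of probe sets of similar intensity read as far up. The annotation used here does not say which splice forms a probe set reads, and no form is assigned to any of them. The mean over the 4 was 0.0025 (SD 0.19), so the sign of BCL2L1 depended on whether the brightest probe set or the mean was taken.

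BCL2, the founding survival gene, was dim on all 4 probe sets. On 207005_s_at it read 5.34 with siHLX and 4.65 with siCTR, a difference of 0.69 or 1.61-fold, the largest among the BCL2 family probe sets above the threshold. The siCTR reading lay below the threshold, and 7.45% of probe sets of similar intensity read as far up. The other probe set derived from the same reference transcript, 207004_at, read 5.51 with siHLX and 5.37 with siCTR, so these 2 readings differed from each other by 0.55. The probe set 203685_at read 5.27 with siHLX and 5.47 with siCTR, and 203684_s_at, just below the threshold, 4.92 with siHLX and 4.60 with siCTR. Thus 3 of 4 readings were higher, with a mean over the 3 above the threshold of 0.21 (SD 0.45). The SD exceeded the mean.

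The effector genes differed from each other in sign. BAX, whose protein moves from the cytosol into the mitochondrial membrane, read 8.79 with siHLX and 8.63 with siCTR on the brighter probe set, and 8.52 with siHLX and 8.59 with siCTR on the other. These differences of 0.16 and -0.07 averaged 0.045 (SD 0.16). BAK1, whose protein resides in that membrane, had a single probe set with 7.13 on the siHLX array and 7.45 on the siCTR array. This difference of -0.32, or 0.801 times the control level, had 8.97% of probe sets of similar intensity as far down. Scaled to equal poly-A controls it was -0.03.

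The BH3-only genes ranged from -0.42 to 0.63 over 14 probe sets above the threshold, 7 higher and 7 lower. BAD, which neutralises BCL-XL until kinases of the survival pathway phosphorylate it, read 7.66 with siHLX and 8.08 with siCTR on its brightest probe set 209364_at. The difference of -0.42 was the lowest of all 33, with 2.27% of probe sets of similar intensity as far down. The probe set 1861_at, derived from the same database sequence, read 7.17 with siHLX and 7.04 with siCTR, a difference of 0.13. The 2 readings of BAD from 1 sequence thus had opposite signs and lay 0.55 apart, and the dimmest of its 3 read -0.11. The mean over the 3 was -0.13 (SD 0.28).

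BID, the BH3-only protein that caspase-8 cleaves to link death receptors to mitochondria, showed the same kind of split. Its brightest probe set 211725_s_at read 8.99 with siHLX and 8.82 with siCTR, and the middle one 8.05 with siHLX and 8.10 with siCTR. The dimmest, 204493_at, read 7.43 with siHLX and 7.82 with siCTR, a difference of -0.39, and 4.05% of probe sets of similar intensity read as far down. The brightest and dimmest differed by 0.56, so that BID was higher by its brightest probe set and lower by the mean of the 3, -0.09 (SD 0.28).

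BCL2L11, the BIM gene, whose protein binds all survival members, had 7 probe sets, of which the dimmer ones read higher with siHLX. The 3 brightest, at levels near 7, read -0.07, -0.20 and 0.01. The 4 dimmer ones were all higher with siHLX: 1558143_a_at had 6.76 against 6.49 with siCTR, 1555372_at 6.57 against 6.12, 222343_at 5.41 against 4.78 and 208536_s_at, below the threshold, 4.15 against 3.69. The largest of these, 0.63 or 1.55-fold on 222343_at, had 9.39% of probe sets of similar intensity as far up and a siCTR reading below the threshold. These 4 lay at or below the level of ALB, and the spread between genes is wider there, as the plot against level shows. The mean over the 6 probe sets above the threshold was 0.18 (SD 0.32), whereas the brightest read 7.41 with siHLX and 7.48 with siCTR.

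PMAIP1, the gene of the MCL1-binding protein NOXA, was bright on both probe sets. It read 10.04 with siHLX and 10.21 with siCTR on 204285_s_at, and 9.57 with siHLX and 9.56 with siCTR on 204286_s_at. The difference of -0.17 on the first had 11.6% of probe sets of similar intensity as far down. The second differed by 0.01, and the mean of both was -0.08 (SD 0.13).

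**Figure D3:**
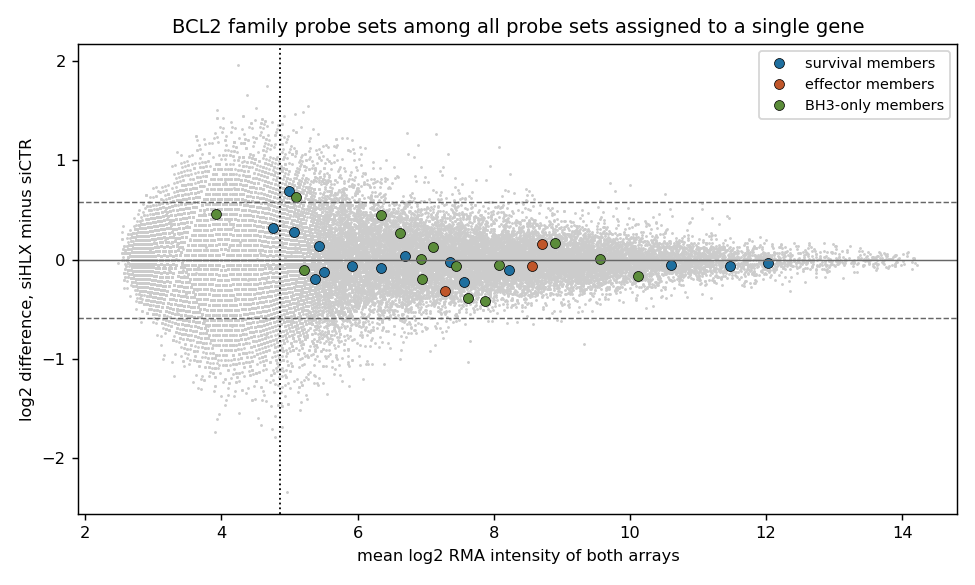
The siHLX minus siCTR difference in log2 units (y axis) against the mean log2 RMA intensity of both (x axis), for BCL2 family probe sets by role and for all probe sets assigned to a single gene (grey); the dotted line is the level threshold and dashed lines mark 1.5-fold. The 2 BCL2 family probe sets beyond 1.5-fold lie just right of the dotted line, where the grey cloud is wide, and those from level 8 on stay between -0.17 and 0.17; with equal poly-A controls all points would lie 0.289 higher.

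Spread narrowed with level in the BCL2 family as it did on the whole array. The 8 BCL2 family probe sets above the threshold and below level 6 ranged from -0.20 to 0.69, the 13 between level 6 and 8 from -0.42 to 0.45, and the 10 from level 8 on from -0.17 to 0.17. The SD over all probe sets in the same ranges was 0.434, 0.267 and 0.159. Among the 4230 probe sets from the threshold up to 0.5 above the brighter of the 2 BCL2 family probe sets beyond 1.5-fold, 423 were also higher by 1.5-fold or more. All 8 members with more than 1 probe set above the threshold had readings of both signs, as did 58.2% of the 5869 such genes on the array. This share is not matched for the number of probe sets per gene, which reached 6 among the members. A gene with more probe sets can more readily show both signs. Pooled over genes, the SD of probe sets around their gene mean was 0.26 for these 8 members and 0.27 for all 5869, and 0 of the 10 members had a brightest reading beyond 1.5-fold (5.05% of all genes did, 2.5% upwards and 2.55% downwards).

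The balance between the roles was read as the difference of their medians, which does not depend on the scaling of the arrays by a constant. By brightest probe sets the median was -0.12 for the 4 BH3-only genes, -0.08 for the 2 effectors and -0.05 for the 4 survival genes. The BH3-only median was thus 0.07 below the survival median, and the effector median 0.03 below it. With the mean of all probe sets above the threshold in place of the brightest, the medians were -0.085 for BH3-only genes, -0.14 for effectors and -0.01 for survival genes, and BH3-only genes then lay above the effectors by 0.0525. No replicate error exists against which these distances could be set. BH3-only minus survival was -0.32 when probe sets that may read several transcripts (suffix _s_at or _x_at) were left out. That choice removed PMAIP1 and read BID by its dimmest probe set 204493_at (-0.39) instead of its brightest (0.17). The BH3-only median was then this single reading.

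Sequences before the transcription starts are shown for BCL2A1, the brightest member, and for BCL2 and BCL2L11, the 2 with a probe set beyond 1.5-fold, because the siRNA was aimed at a homeodomain factor and such factors bind AT-rich cores. RefSeq promoter windows on GRCh38.p14, each from 250 bases before to 50 after a start, matched 9 of the 10 members with 15 windows. The core TAAT was searched on both strands, so that ATTA counts too and overlapping matches are counted apart. Capitals mark it in the windows below, which run 5′ to 3′.
BCL2A1, chr15:79971147-79971446, minus strand: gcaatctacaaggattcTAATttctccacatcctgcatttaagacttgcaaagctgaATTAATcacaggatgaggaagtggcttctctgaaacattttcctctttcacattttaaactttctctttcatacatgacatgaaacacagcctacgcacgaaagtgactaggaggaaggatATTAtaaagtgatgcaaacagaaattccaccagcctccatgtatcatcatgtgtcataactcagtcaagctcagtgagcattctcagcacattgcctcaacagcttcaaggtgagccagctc
BCL2, chr18:63319720-63320019, minus strand: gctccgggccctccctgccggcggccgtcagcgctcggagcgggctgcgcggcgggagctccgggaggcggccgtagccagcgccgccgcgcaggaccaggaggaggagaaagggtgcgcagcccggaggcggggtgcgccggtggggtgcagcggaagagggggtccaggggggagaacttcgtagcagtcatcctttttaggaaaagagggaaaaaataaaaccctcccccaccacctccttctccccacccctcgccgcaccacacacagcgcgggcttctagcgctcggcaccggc
BCL2L11, chr2:111120664-111120963, plus strand: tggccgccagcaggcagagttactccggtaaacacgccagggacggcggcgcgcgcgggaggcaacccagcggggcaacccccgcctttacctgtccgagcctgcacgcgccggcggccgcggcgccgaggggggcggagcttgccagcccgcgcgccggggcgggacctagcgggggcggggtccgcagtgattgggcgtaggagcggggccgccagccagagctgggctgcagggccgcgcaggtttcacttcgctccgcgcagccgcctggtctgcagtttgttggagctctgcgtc

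The BCL2A1 window held 4 matches, of which 2 overlap, and those of BCL2 and BCL2L11 held 0. The core was present in 7 of the 15 BCL2 family windows, from BAX, BCL2A1, BCL2L1, BID and PMAIP1, and in 50.2% of all 35116 windows on the genome. Some of these windows are overlapping ones of BID that share the same matches, so they are not separate counts. By gene the core was found in 5 of the 9 members with a window, and MCL1 had none. The STAT-type motif TTCNNNGAA, a palindrome, was found in 1 of the 15, that of BCL2A1, and in 7.66% of all. GC content was 41.0% in the BCL2A1 window, 70.7% in that of BCL2 and 74.7% in that of BCL2L11. A match in letters describes the window and is not a binding site.

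Genes around the family were read in the same way, by the brightest probe set, and by that reading 0 of the 79 genes above the threshold in the 5 lists passed 1.5-fold, where 5.05% of all genes did. By probe set 4 of 180 passed it, or 2.22% against 6.01% of all, namely 1 each of ETS1 (0.81) and FOXO1 (0.62) higher, and of BNIP1 (-0.68) and BTRC (-0.67) lower. These backgrounds are not matched for level. Over all listed genes with a probe set of their own, those below the threshold included, the median siHLX level of the lists ran from 6.25 to 9.94. The SD over all probe sets fell from 0.434 below level 6 to 0.159 from level 8 on, so a bright list passes 1.5-fold less often. Of 17 other genes of the BCL2 and BNIP groups 16 had a probe set of their own and 11 lay above the threshold. By brightest probe set 9 were higher and 2 lower, where 47.4% of all genes were higher, with a median of 0.09 against -0.01 over all genes. Those counted as higher include BCL2L12 at 0.01 and BNIP1 and BNIP2 at 0.02. Over all their probe sets above the threshold the mean was -0.25 for BNIP1 and -0.035 for BNIP2. BNIP3L and BNIP3, mitophagy receptors induced by low oxygen, were higher on both of their probe sets, BNIP3L by 0.34 and 0.49 and BNIP3 by 0.29 and 0.30. BNIP3L read 9.69 with siHLX and 9.35 with siCTR on the brighter one, and 1.71% of probe sets of similar intensity read as far up. BCL2L2, the survival gene of BCL-W, read 0.26. BCL2L10, a survival gene, read 0.35 and BCL2L15 -0.34, each on a single probe set near the threshold, where 22.3% of probe sets of similar intensity read as far up as BCL2L10 and 23.0% as far down as BCL2L15. BCL2L13 was lower on each of 4 probe sets, from -0.53 to -0.08. Under the poly-A scaling BCL2L15 stayed below 0 and the brightest probe set of BCL2L13, at -0.16, lay above it.

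**Figure D4:**
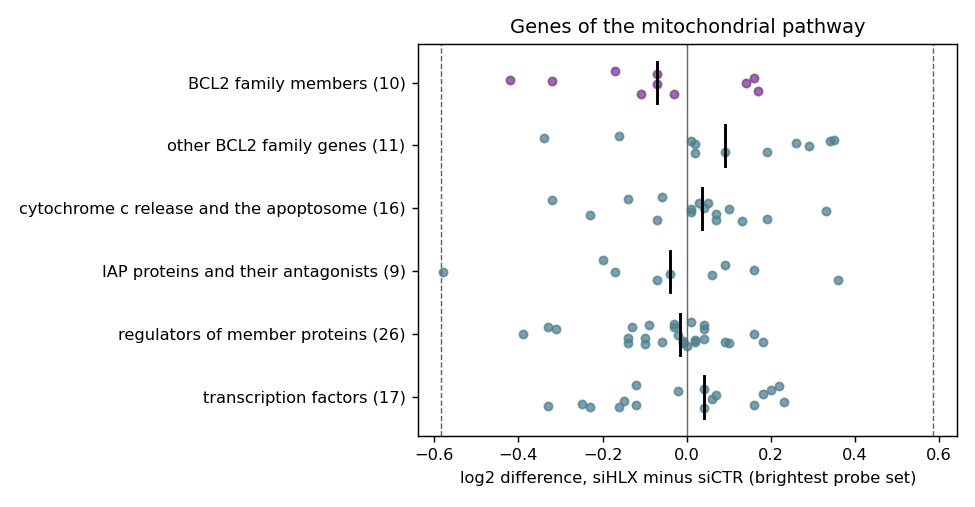
The siHLX minus siCTR difference in log2 units (x axis) of the BCL2 family members and of 5 lists of genes around them (y axis, number above the level threshold in parentheses), each gene by its brightest probe set; black bars are medians and dashed lines mark 1.5-fold. The medians run from -0.07 for the members to 0.09 for the other BCL2 family genes, and every gene lies between the dashed lines; with equal poly-A controls every point and median would lie 0.289 higher, so that the median of the members would be 0.22.

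Downstream of the membrane, 16 of 18 listed genes of cytochrome c release and the apoptosome had a probe set of their own, and all 16 lay above the threshold. Of these 11 were higher and 5 lower, with a median of 0.035. CYCS, cytochrome c itself, read 13.08 with siHLX and 13.05 with siCTR, and CASP9, the initiator caspase of the apoptosome, 7.84 with siHLX and 7.83 with siCTR. APAF1, the scaffold that joins them, read 7.51 with siHLX and 7.18 with siCTR, a difference of 0.33, but -0.14 on its other probe set. CASP6, an executioner caspase, read 0.19. TOMM22, a receptor of the import pore, read 10.04 with siHLX and 10.36 with siCTR, a difference of -0.32 that 1.08% of probe sets of similar intensity reached, while another of its 3 probe sets read 0.16. The nuclease gene ENDOG read -0.23.

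Of the IAP proteins, which block caspases, and their antagonists, 9 of 10 had a probe set and lay above the threshold, 4 higher and 5 lower, with a median of -0.04. BIRC5 (survivin) was lower on all 4 probe sets, from -0.24 to -0.10, with 9.55 on the siHLX array and 9.75 on the siCTR array for the brightest. BIRC5 is also a gene of mitosis. XIAP read 9.59 with siHLX and 9.66 with siCTR on its brightest probe set and up to 0.38 on others, with a mean of 0.11 over 6. BIRC2 read 0.16 and NAIP, a dim gene, 0.36. SEPTIN4, whose ARTS form antagonises XIAP, read 4.83 with siHLX and 5.41 with siCTR, a difference of -0.58 at a level near the threshold where 10.7% of probe sets lay as far down. Under the poly-A scaling, SEPTIN4 and TOMM22 stayed below 0, and all 4 probe sets of BIRC5, ENDOG and the brightest of XIAP lay above it.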

How the data were processed

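The treatment in the labels gave the groups. The log2 intensities deposited by the authors were made, per the study's methods, by RMA background correction and quantile normalisation with limma and affy (named in the submitters' processing notes), whose versions are not given in the sources used here. They are given to 2 decimals. Ratios to the sample mean, also named there, are not visible in the values.

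The platform annotation gave 1 gene for 41091, several for 1801 and none for 11721 of the 54613 probe sets other than controls. Symbols were checked through RefSeq of GRCh38.p14, where 41037 matched and 0 changed. Only probe sets of 1 gene were named. A gene was read by its brightest probe set, and used in counts when the mean of both arrays was at least 4.865. No test was run, since each group held 1 array and its precision is limited by that number. In permuted data a known fold was added to some genes and read back. That recovery holds by construction and tests none of the results. The share of probe sets within 0.5 log2 units that lay as far in the same direction is a description.

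Genes named were the members, HLX, and in each list the 2 highest and 2 lowest; others named, such as BNIP1, BNIP3, BTRC, ETS1, CYCS, CASP9, XIAP and the cell type markers, and ALB as the gauge of dim signal were chosen after their values were seen. Members and lists were chosen with earlier results of these data known. Alternatives were median centring, lowess (fraction 0.2), repeated quantile normalisation, equal poly-A or hybridisation controls, the mean of probe sets, probe sets with the suffix _s_at or _x_at left out, no threshold, a threshold at the 75th percentile (7.095), and limits of 1.2-fold and 2-fold. Python 3.11.15, pandas 2.3.3 and statsmodels 0.14.6 were used.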

Additional observations from a re-analysis of the deposited data

How the results depend on the processing

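The size and sign of the medians depended on the scaling to poly-A controls and on the choice of probe sets. With equal poly-A controls the family median was 0.22, with 8 members higher and 2 lower, and the medians were 0.17 for BH3-only genes, 0.21 for effectors and 0.24 for survival genes, each above 0 because 0.289 was added to every difference, and 88.8% of all genes were then higher. Without probe sets of the suffix _s_at or _x_at, which may read several transcripts, BAX and PMAIP1 dropped out. The 8 members that remained were 1 higher and 7 lower, with a family median of -0.17. The BH3-only median was -0.39, which is the dimmest probe set of BID, and the effector median was -0.32, which is BAK1 alone. BH3-only minus survival was then -0.32 and effector minus survival -0.25. With the mean of probe sets BH3-only minus effector was 0.0525 instead of -0.04. The count beyond 1.5-fold of 2 higher became 1 without those suffixes, 0 with a threshold at the 75th percentile, 5 at 1.2-fold (with 3 lower) and 0 at 2-fold. With equal poly-A controls this count was 3. Of 188 values computed under alternatives, 158 were labelled as unchanged by the limits set. These include small values that changed sign, such as BID with the mean of probe sets (0.17 to -0.09). The others include values that kept their sign, such as BAD with equal poly-A controls (-0.42 to -0.13). Alternatives such as median centring, with both medians at 4.87, could move little, so this count is no measure of robustness. The cause of the changes was not tested where none is named. BAD, BAK1, BAX and BCL2 kept their sign under every alternative that gave them a value. Among the others BID changed sign with the mean of probe sets and without the suffixes, BCL2L1 and BCL2L11 with the mean and with poly-A controls, and MCL1, BCL2A1 and PMAIP1 with poly-A controls alone. Several alternatives could not change a sign. Median centring left the values as they were, poly-A scaling could only raise BAX and BCL2, and BAK1 has a single probe set. A kept sign is therefore no sign of agreement, and BAD, BAX and BCL2 each had probe sets of both signs. Signal close to background limits BCL2 and the dimmer probe sets of BCL2L1 and BCL2L11. No paired analysis was possible because there was 1 array per siRNA.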

Other observations

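Of 28 listed genes whose products act on BCL2 family proteins, 26 lay above the threshold, 10 higher, 15 lower and 1 at 0, with a median of -0.015 against -0.01 over all genes. The kinase genes PIM2 and AKT1, whose products phosphorylate BAD, read -0.39 and -0.33, and DYNLL2, a light chain that tethers BMF, was lower with siHLX on each of 3 probe sets, from -0.38 to -0.18. MARCHF5, a ubiquitin ligase of the outer mitochondrial membrane, read 0.18 on 1 probe set and -0.20 on the other, and YWHAH, a 14-3-3 protein, read 0.16. USP9X and HUWE1, which remove and add ubiquitin on MCL1, read 0.10 and 0.09 on their brightest probe sets and up to 0.40 and 0.54 on others. With equal poly-A controls YWHAH, USP9X, HUWE1 and the brightest probe set of MARCHF5 stayed above 0, and PIM2, AKT1 and the brightest probe set of DYNLL2 below it.

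Of 18 listed transcription factors known to act on member genes, 17 had a probe set of their own and all lay above the threshold, 9 higher and 8 lower, with a median of 0.04. STAT5B, the highest, read 9.65 with siHLX and 9.42 with siCTR, and FOXO1 read 0.22 and 0.62 on its 2 probe sets. E2F1 was the lowest, with -0.33 and -0.30 on its 2, and FOXO3, a known activator of the BIM gene, read -0.25 on the brightest of 4 probe sets that reached 0.20. After poly-A scaling E2F1 stayed below 0 and the brightest probe set of FOXO3 did not. Of the T cell receptor complex, which ALCL often loses, 3 of 4 genes lay above the threshold, 1 higher and 2 lower, with a median of -0.19. CD247 read 4.92 with siHLX and 5.54 with siCTR, a difference of -0.62 and the 1 beyond 1.5-fold, at a level where 9.02% of probe sets of similar intensity read as far down. CD3E read 5.68 with siHLX and 5.87 with siCTR, and CD3D 10.98 with siHLX and 10.73 with siCTR.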
